A study of Mus musculus with 18 samples.

Results

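The matrix proteases and their inhibitors described here are the genes whose array symbol was Adamts, Mmp or Timp followed by a number. The rule used the name alone and found 44 of the 19938 genes measured, namely 18 Adamts genes, 22 Mmp genes and 4 Timp genes. Each gene was read by its brightest probe set among 68 probe sets in all. The samples were 18 whole-transcript Affymetrix arrays of mouse muscle, 3 for each of 6 groups, and every mouse had been back-crossed to C57BL/6. EglN1 KO soleus and EglN1 KO quadriceps came from tamoxifen-treated mice that carried a floxed EglN1 locus and a skeletal-muscle Cre recombinase. WT soleus and WT quadriceps came from mice with the WT locus that carried the same Cre and received the same tamoxifen, given for 3 days before harvest. The muscle deletion therefore leaves EglN1 intact in the fibroblasts, vessels and blood cells of the same tissue, and both genotypes were exposed to Cre and tamoxifen. In a separate experiment, hearts came from EglN1 WT mice given FG-4497 at 50 mg/kg into the peritoneum, or vehicle. No label gives the sex or age of the mice or the time from FG-4497 to harvest.

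Matrix metalloproteinases (the Mmp genes) and the ADAMTS proteases are zinc enzymes that cut collagens, proteoglycans and other proteins outside the cell. The 4 tissue inhibitors of metalloproteinases, Timp1 to Timp4, bind and block them, and in muscle most of these genes are made by fibroblasts, vessel cells and leukocytes as well as by the fibres. EglN1, also called PHD2, is the oxygen-dependent prolyl hydroxylase that marks hypoxia-inducible factor (HIF) for destruction, so loss of EglN1 or its inhibition by FG-4497 stabilises HIF. The comparisons asked which matrix protease genes differ after EglN1 deletion in muscle or after FG-4497 in EglN1 WT hearts. They also asked how the same genes differ between soleus, quadriceps and heart.

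All values are log2 RMA values, so a difference of 1 is a 2-fold difference in signal. Array medians ran from 6.68 to 6.81, and arrays of the same group correlated at 0.986 to 0.995 across genes. Egln1 itself read 11.03 to 11.12 in KO soleus, against 11.22 to 11.31 in WT soleus, and 10.67 to 10.92 in KO quadriceps, against 10.94 to 10.99 in WT quadriceps. Neither pair of groups overlapped, but the fall was small, and no label says whether the probe set lies in the deleted part. Skeletal fibre, slow fibre and cardiomyocyte markers followed the tissue labels. A lower level in such whole-tissue RNA can mean fewer cells of a type or less RNA per cell, which cannot be told apart.

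Many members of the family had low signal on the arrays. A gene was tested where its mean over the arrays of a fit reached the 40th percentile of all genes, a level of 6.54 in the muscle fit, 6.61 in the heart fit and 6.58 in the fit of all arrays. By that rule 22 members were tested in muscle, 20 in heart and 23 over all arrays. The level was exceeded on all 18 arrays by 16 members and on none by 14 members. The 14 were Adamts16, Adamts18, Adamts19, Mmp1a, Mmp1b, Mmp3, Mmp7, Mmp8, Mmp12, Mmp16, Mmp20, Mmp21, Mmp25 and Mmp27. Among them are 3 of the 4 collagenases, and the remaining collagenase, Mmp13, passed the level on 2 of 18 arrays. Among the 16 genes above it on every array were the gelatinase Mmp2, the membrane-type Mmp14 that activates it, the proteoglycan-cleaving Adamts1, Adamts5 and Adamts9, the procollagen N-propeptidase Adamts3, and Timp2, Timp3 and Timp4.

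In hearts, FG-4497 was followed by a rise of Adamts9 and falls of Timp4 and Adamts5. Limma called 3 of the 20 tested members, 1 higher and 2 lower, at an adjusted p under 0.05 over all genes. Among all 11963 genes tested, 2.23% were called, 1.58% higher and 0.652% lower. An unadjusted p under 0.05 was found for 7 of the 20 members, against 11.3% of all genes. The groups did not overlap for 7 of the 20 members, against 15.9% of all genes. The median difference of the 20 members was -0.07, against -0.00054 for all genes tested.

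Adamts9, which encodes a secreted protease that cuts versican, had 10.85, 10.62 and 10.95 in FG-4497 hearts, against 9.75, 9.50 and 9.70 in vehicle hearts. Every treated heart lay above every vehicle heart. The log2 difference was 1.16 (SE 0.11), or 2.23-fold, with a limma adjusted p of 0.000142. All 6 probe sets of Adamts9 were higher after FG-4497, by 1.13 to 1.72, and none had overlapping groups. The endothelial marker list averaged 10.23 to 10.33 in FG-4497 hearts and 10.12 to 10.17 in vehicle hearts, with 1 of its 8 tested genes called, Cldn5. Of the 8 genes 4 were higher and 4 lower after FG-4497, with a median difference of -0.0053, and 5 had an unadjusted p under 0.05. The part of that shift in the Adamts9 result was not tested.

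Timp4, the inhibitor of this family best known from heart, had 9.98, 10.09 and 10.47 in FG-4497 hearts, against 10.76, 10.82 and 10.85 in vehicle hearts. The treated hearts spread more widely than the vehicle hearts and all lay below them. Its log2 difference was -0.63 (SE 0.12), 1.55-fold lower, with a limma adjusted p of 0.0186. Adamts5, the main aggrecan-cleaving protease of mouse cartilage, had 8.27, 8.41 and 8.62 in FG-4497 hearts, against 8.96, 8.80 and 8.98 in vehicle hearts. Again no treated heart reached the lowest vehicle heart. The difference of Adamts5 was -0.48 (SE 0.10), 1.39-fold lower, with a limma adjusted p of 0.0385. Both calls were fragile. The Timp4 call was lost without vehicle replicate 2 or 3 or FG-4497 replicate 1 or 2, with adjusted p between 0.0590 and 0.0837, and with no filter on low values (0.0719). The Adamts5 call was lost without vehicle replicate 1 or 3 or FG-4497 replicate 1 or 2, with adjusted p between 0.108 and 0.154, and with no filter (0.131). The fibroblast marker list averaged 9.32 to 9.40 in FG-4497 hearts and 9.43 to 9.54 in vehicle hearts with 0 of 8 genes called. Of these 8 genes, 0 were higher after FG-4497, with a median difference of -0.12, and 1 had an unadjusted p under 0.05 in limma. The part of the fibroblast shift in both falls was not tested.

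The other tested members moved less. Adamts1, which cuts versican and aggrecan, had 8.96, 9.06 and 8.83 in FG-4497 hearts, against 8.62, 8.52 and 8.63 in vehicle hearts, a difference of 0.36 (SE 0.09) that missed the threshold (limma adjusted p 0.0608). Timp3, the inhibitor that binds to the matrix and also blocks ADAMTS enzymes, had 11.54, 11.36 and 11.48 in FG-4497 hearts, against 11.25, 11.11 and 11.11 in vehicle hearts. That difference of 0.30 (SE 0.08) did not pass either (limma adjusted p 0.117). Adamts14, a procollagen N-propeptidase, differed by 0.27 and Mmp28 by -0.25, with limma adjusted p of 0.267 and 0.325 and no overlap of the groups. Neither gelatinase passed, with differences of -0.18 for Mmp2 and -0.06 for Mmp9, nor did Mmp14 at -0.09 or Timp2 at -0.12. By role, 1 of 5 tested proteoglycan-cleaving ADAMTS genes rose and 1 fell, 1 of 3 tested Timp genes fell, and none of the 6 tested Mmp genes was called in either direction.

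**Figure D1:**
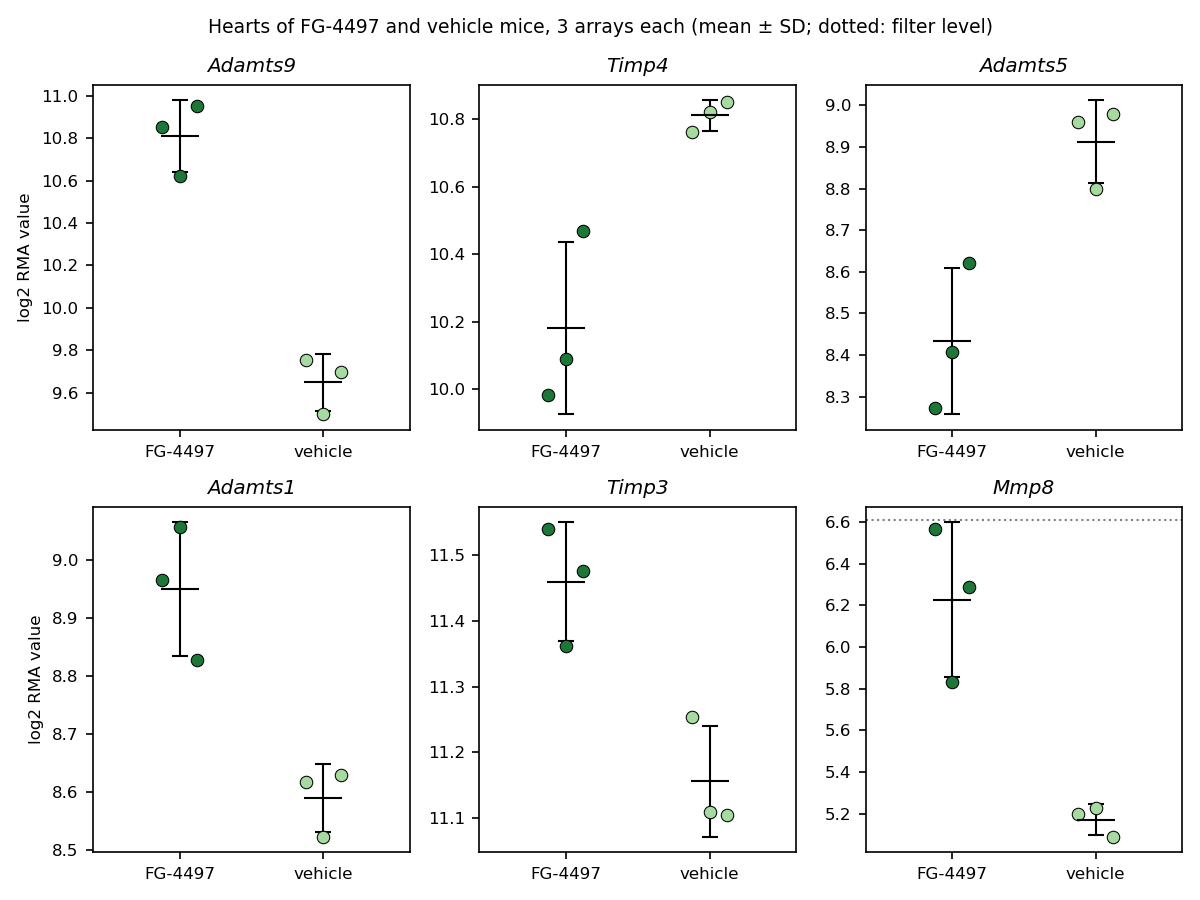
Log2 RMA values of 6 members in each heart array, FG-4497 at left and vehicle at right, with black lines at the mean ± SD of 3 arrays and the dotted line at the heart filter level of 6.61. The groups separate in every panel, but Adamts9, Timp4 and Adamts5 alone passed the test, and all 6 Mmp8 values lie below the level.

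Mmp8, the neutrophil collagenase, had 6.56, 5.83 and 6.29 in FG-4497 hearts, against 5.20, 5.23 and 5.09 in vehicle hearts. All 6 values lie below the level, where values carry no sure order, so no fold change is given for Mmp8. With no filter on low values limma called Mmp8 higher, but that call rests only on values below the level. The neutrophil gene S100a9 was also higher, with 7.26, 7.57 and 7.54 in FG-4497 hearts, against 6.76, 6.88 and 6.54 in vehicle hearts (difference 0.72, limma adjusted p 0.00662). Its partner S100a8 had 6.15, 6.02 and 5.94 in FG-4497 hearts, against 5.49, 5.37 and 5.48 in vehicle hearts, all below the level, as were all 6 values of the neutrophil surface gene Ly6g. The list of macrophage and neutrophil markers averaged 7.07 to 7.22 in FG-4497 hearts, against 6.95 to 7.02 in vehicle hearts. S100a9 was the 1 gene called of its 8 tested genes. Of these 8, 5 were higher after FG-4497 and the rest lower, with a median difference of 0.06. In limma 3 had an unadjusted p under 0.05. The part of these cells in the Mmp8 values was not tested.

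The genes around the family moved in groups of unequal size in the heart. Targets of HIF had 14 of 17 tested genes higher and 0 lower, with a median difference of 0.95, led by Adm (adrenomedullin, 3.25), Pfkfb3 (1.50), Slc2a1 (the glucose transporter GLUT1, 1.39) and Ankrd37 (1.37). Among transcription factors and cytokines known to switch on protease genes, 6 of 13 tested genes were higher and 0 lower, with Fosl2 up by 1.54, Egr1 by 1.08, Ets2 by 0.82 and Junb by 0.64. The plasminogen system had 1 gene higher, Plaur (the urokinase receptor, 0.54), and 1 lower, Thbd (thrombomodulin, -0.59), of 5 tested. The regulators list had 1 of 13 called, Furin, which activates pro-enzymes of both protease families (0.37). Of 12 tested proteoglycan and glycoprotein substrates, Vwf was higher by 0.51 and Postn was lower, at -0.42. No gene was called among 16 collagen substrates, 8 membrane ADAM proteases or 6 ADAMTS-like genes, where 2, 1 and 1 genes had an unadjusted p under 0.05 in limma.

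Promoters of the members were searched for the letters known to be bound by HIF and by AP-1, the factor built from Fos and Jun proteins, and whether either acts on these genes here was not tested. RefSeq promoters of build GRCm38.p6 were at hand for 30 of the 44 members, in 33 windows. Each window was read over the 250 bases before the annotated start. Adamts9 and Timp4 are shown because they moved in opposite directions after FG-4497, and Mmp13 because it holds the AP-1 motif. Capitals mark matches to the HIF core (ACGTG or GCGTG, read on both strands, so that CACGTG counts as a match on each) or to the AP-1 motif (TGANTCA, with N any base, on both strands). The 2 motifs share no letters in these windows.
Adamts9, chr6:92943535-92943784, minus strand: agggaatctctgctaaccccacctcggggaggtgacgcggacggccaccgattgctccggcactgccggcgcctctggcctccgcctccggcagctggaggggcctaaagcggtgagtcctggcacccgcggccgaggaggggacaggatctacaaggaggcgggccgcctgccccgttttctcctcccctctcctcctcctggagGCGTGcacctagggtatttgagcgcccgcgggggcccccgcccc
Timp4, chr6:115252206-115252455, minus strand: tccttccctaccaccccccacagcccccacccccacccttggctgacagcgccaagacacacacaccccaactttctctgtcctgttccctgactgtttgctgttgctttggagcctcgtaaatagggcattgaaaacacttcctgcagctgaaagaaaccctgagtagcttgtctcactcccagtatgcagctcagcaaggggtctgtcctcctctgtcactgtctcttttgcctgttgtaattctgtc
Mmp13, chr9:7272264-7272513, plus strand: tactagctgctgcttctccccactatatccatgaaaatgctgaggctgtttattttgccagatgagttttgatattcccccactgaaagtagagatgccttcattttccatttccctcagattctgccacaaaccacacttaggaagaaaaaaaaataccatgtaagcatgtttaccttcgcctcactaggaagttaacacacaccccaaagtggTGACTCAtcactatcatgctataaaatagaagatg
The Adamts9 window holds 1 HIF core match, which begins 44 bases before the start, and the Timp4 window holds none. A HIF core match occurs in 38.6% of all 32851 windows in the table and in 14 of the 33 member windows, so its presence in the Adamts9 window is common among promoters. Timp3 and Adamts1 also hold 1 match each, and Mmp8 none. The AP-1 motif occurs in 6.75% of all windows and in 8 of the 33 member windows. Those 8 windows belong to Mmp1a, Mmp1b, Mmp3, Mmp7, Mmp10, Mmp12, Mmp13 and Mmp20, all on chromosome 9. None of these 8 genes passed the filter in heart or muscle. A match of letters is a description and not evidence of binding.

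In skeletal muscle, no member passed the test after EglN1 deletion. Limma called 0 of 22 tested members in KO against WT soleus, where 0.184% of all genes were called (0.125% higher and 0.0585% lower). Of the 22, 5 had an unadjusted p under 0.05, against 7.56% of all genes. In quadriceps 0 of 22 were called, against 0.794% of all genes (0.309% higher and 0.485% lower), with 1 member at an unadjusted p under 0.05, against 12.2% of all genes. Averaged over both muscles 0 of 22 were called, against 0.911% of all genes (0.401% higher and 0.510% lower), with 4 at an unadjusted p under 0.05, against 12.1% of all genes. Groups did not overlap for 3 of 22 members in soleus and 2 of 22 in quadriceps, against 12.7% and 17.1% of all genes. The median difference of the tested members was 0.0042 in soleus and 0.017 in quadriceps.

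Adamts20, a versican-cleaving protease whose loss causes a pigment defect in mice, had the largest difference among the 22 tested members in both muscles. It had 7.83, 8.12 and 7.89 in KO soleus, against 7.51, 7.46 and 7.40 in WT soleus, so that no KO array overlapped a WT array. In quadriceps it had 8.23, 8.64 and 7.73 in KO, against 7.66, 7.73 and 7.75 in WT, and KO replicate 3 lay within the WT range. The difference was 0.49 (SE 0.16, 95% interval 0.14 to 0.84, limma adjusted p 0.403) in soleus, 0.49 (SE 0.16, adjusted p 0.225) in quadriceps and 0.49 (SE 0.12, interval 0.22 to 0.76, adjusted p 0.0997) averaged over both. Adamts20 was thus not called in the main fit. Without quadriceps KO replicate 3 the averaged difference of Adamts20 was 0.60 (limma adjusted p 0.00333) and the quadriceps difference 0.72 (adjusted p 0.0127). That array was the lowest of the KO quadriceps, so its removal raises the KO mean, and the fits without it cannot show a rise. With estimated array weights the averaged limma adjusted p was 0.0293.

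The other members named by their small p-values shifted less. Timp3 had 11.28, 11.28 and 11.00 in KO soleus, against 10.68, 10.93 and 10.90 in WT soleus, with no overlap. Its difference was 0.35 in soleus (limma adjusted p 0.249) and 0.25 averaged over both muscles (0.151). Mmp28, known as epilysin, had 6.95, 6.86 and 6.92 in KO soleus, against 6.77, 6.65 and 6.70 in WT soleus, again with no overlap. That gave 0.20 in soleus (limma adjusted p 0.250) and 0.12 averaged over both muscles (0.248). Mmp14 in quadriceps had 7.52, 7.90 and 7.47 in KO, against 7.84, 7.87 and 7.89 in WT, with a difference of -0.23 (limma adjusted p 0.464). Here 2 of the 3 KO arrays were low and replicate 2 lay above the WT arrays. Adamts17 in quadriceps had 8.75, 8.59 and 8.61 in KO, against 8.55, 8.45 and 8.60 in WT, with a difference of 0.11 (limma adjusted p 0.516).

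The KO difference was also compared between the muscles, as soleus minus quadriceps. Limma called 0 of 22 members for that difference, where 0.00836% of all genes were called. An unadjusted p under 0.05 was found for 1 member and for 6.55% of all genes. Mmp28 had the smallest p, with a difference of 0.16 (SE 0.07, adjusted p 0.748). It had 6.76, 6.67 and 6.72 in KO quadriceps, against 6.73, 6.65 and 6.64 in WT quadriceps. Adamts8, a proteoglycan-cleaving protease that inhibits vessel growth, followed at -0.37 (SE 0.19, adjusted p 0.786), and Adamts17 at -0.15 (SE 0.08, adjusted p 0.801). Adamts8 had 8.45, 8.31 and 8.65 in KO soleus, against 9.14, 8.63 and 8.67 in WT soleus, while its KO and WT quadriceps arrays lay together between 6.42 and 6.85. Adamts17 in soleus had 8.69, 8.61 and 8.54 in KO, against 8.70, 8.60 and 8.65 in WT.

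**Figure D2:**
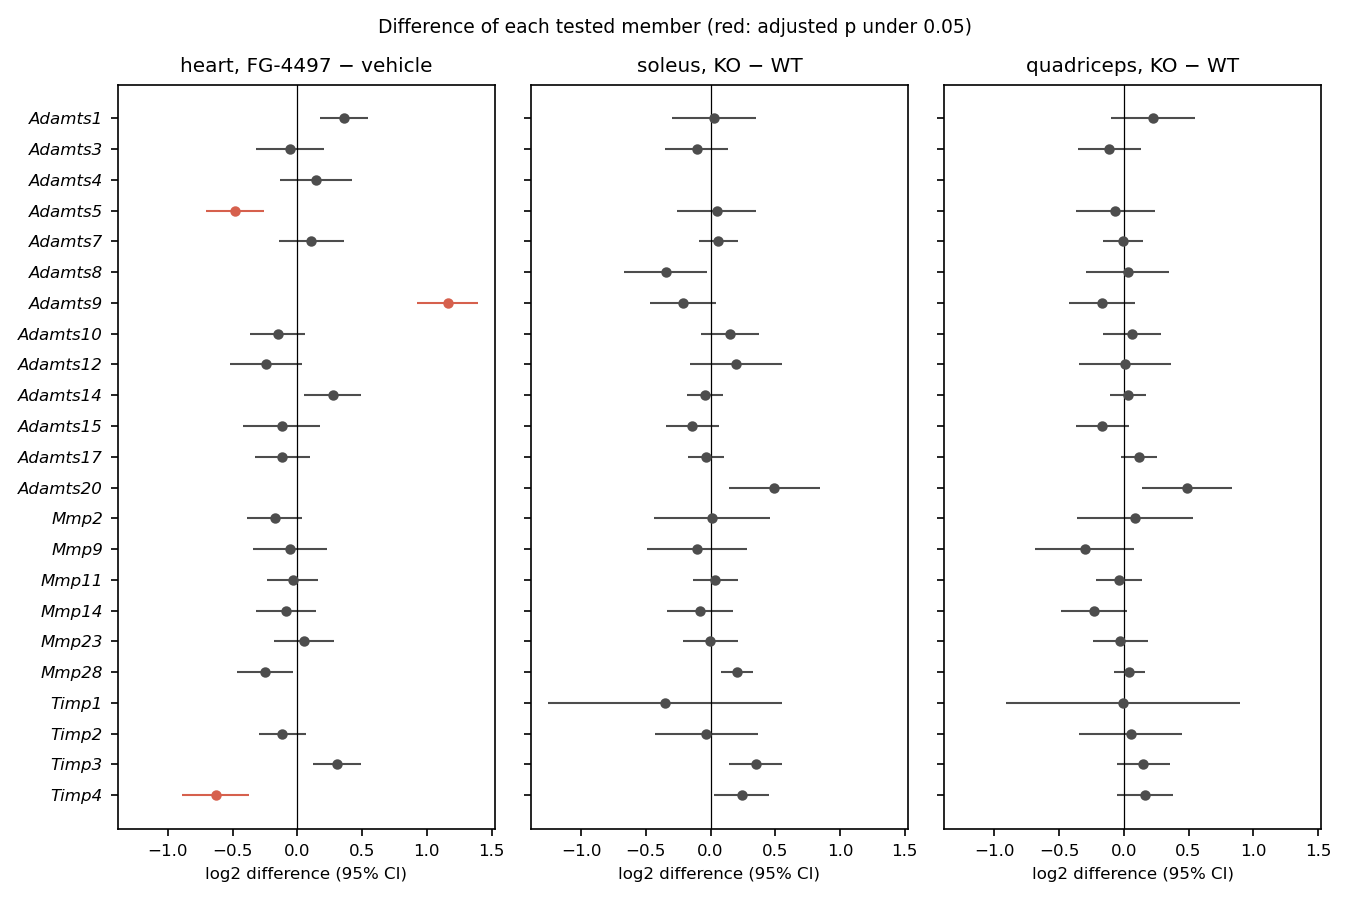
Log2 difference with its 95% interval for every member tested in heart (FG-4497 minus vehicle), soleus (KO minus WT) and quadriceps (KO minus WT), red where the adjusted p was under 0.05. Adamts9 at 1.16, Timp4 at -0.63 and Adamts5 at -0.48 in heart are the red points, and no point is red in either muscle.

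Genes around the family behaved likewise in KO muscle. Across 8 lists, limma called no gene in soleus and 0 to 2 genes per list had an unadjusted p under 0.05, where the largest difference in each list included 0.30 for Adamtsl4 (an ADAMTS-like protein without protease activity), -0.22 for Plat, 0.27 for the protease inhibitor Reck, -0.86 for Fos and 0.39 for Adm. In quadriceps the single call was Stc2, a HIF target that was higher by 0.78 (SE 0.13, limma adjusted p 0.0213), with Adamtsl4 at 0.37 (adjusted p 0.0960), F3 at 0.28, Thbs2 at 0.40, Postn at 0.60 and Fos at -0.58. Averaged over both muscles, Stc2 was higher by 0.51 (limma adjusted p 0.0329) and Adamtsl4 by 0.34 (0.0440). Adamtsl4 had 9.76, 9.98 and 9.81 in KO soleus, against 9.64, 9.61 and 9.40 in WT soleus. In quadriceps Adamtsl4 had 8.50, 8.74 and 8.41 in KO, against 8.26, 8.13 and 8.14 in WT, so KO and WT were apart in both muscles. No gene of the membrane ADAM, plasminogen, regulator, proteoglycan, collagen or inducer lists passed in any of these 3 comparisons. Of 17 tested HIF targets, 0 were called in KO soleus (median difference 0.024) and 1 in KO quadriceps (0.048). In FG-4497 hearts 14 of 17 were called, with a median of 0.95. How far HIF was stabilised in the KO muscles was not tested.

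In a few members 1 KO array stood apart from its group, and those shown here were picked after their values were seen. Timp1, the soluble inhibitor that rises in many injured tissues, had 8.66, 8.65 and 7.27 in KO soleus, against 8.69, 8.45 and 8.50 in WT soleus. In quadriceps Timp1 had 6.44, 8.06 and 6.14 in KO, against 6.78, 6.91 and 6.97 in WT. So soleus KO replicate 3 was low and quadriceps KO replicate 2 was high, with SDs of 0.80 and 1.04 in the KO groups, against 0.13 and 0.09 in the WT groups. Mmp2 had 10.92, 11.27 and 10.23 in KO soleus, against 10.66, 10.75 and 10.99 in WT soleus, and the low array was the same. KO soleus and KO quadriceps arrays of the same replicate number carried the same animal number, so they are not independent. In KO quadriceps Mmp2 had 10.97, 11.24 and 10.73, so replicate 2 was highest and replicate 3 lowest in both muscles. Over all tested genes, the deviations of both muscles correlated at 0.386 for replicate 2 and 0.367 for replicate 3. Mmp13, the main collagenase of mouse, had 5.94, 7.48 and 6.02 in KO quadriceps, against 5.87, 5.73 and 6.16 in WT quadriceps, so that replicate 2 alone was above the filter level. Mmp9 and Mmp8 were also highest in that array among the KO quadriceps, at 7.46 and 5.87. That Mmp9 value lay within the WT quadriceps range of 7.11 to 7.49, and the Mmp8 value lay below the filter level.

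Markers of other cell types moved with these arrays. The fibroblast list averaged 9.56, 9.87 and 9.04 in KO soleus, against 9.48 to 9.65 in WT soleus, and the tendon and cartilage list 8.69, 8.81 and 7.90, against 8.17 to 8.44. In KO quadriceps the fibroblast list averaged 9.59, 9.89 and 9.54, against 9.38 to 9.70 in WT quadriceps, and the tendon and cartilage list 7.91, 8.59 and 7.97, against 7.61 to 8.16. The macrophage and neutrophil list averaged 6.46, 7.14 and 6.78 in KO quadriceps, against 6.57 to 6.79 in WT quadriceps, and S100a9 had 6.36, 7.55 and 6.48 in KO. The slow fibre list averaged 7.62, 9.42 and 8.27 in KO quadriceps, against 7.63 to 8.79 in WT quadriceps, so replicate 2 was again the highest. No gene of these 4 marker lists was called in either KO comparison, and their part in the member values was not tested. Both of these KO arrays were then left out, a setting chosen after the values were seen. Limma called 2 of 22 members in quadriceps, Mmp14 and Timp1, both lower. The value of Mmp14 was then -0.37 (adjusted p 0.0301), and 0 of 22 members were called in soleus. Among KO quadriceps, the array left out was the highest for Mmp14 (7.90) and Timp1 (8.06), so its removal lowers both KO means. The Timp1 values that remain there, 6.44 and 6.14, lie below the filter level of 6.54. The setting therefore cannot show a fall of either gene.

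**Figure D3:**
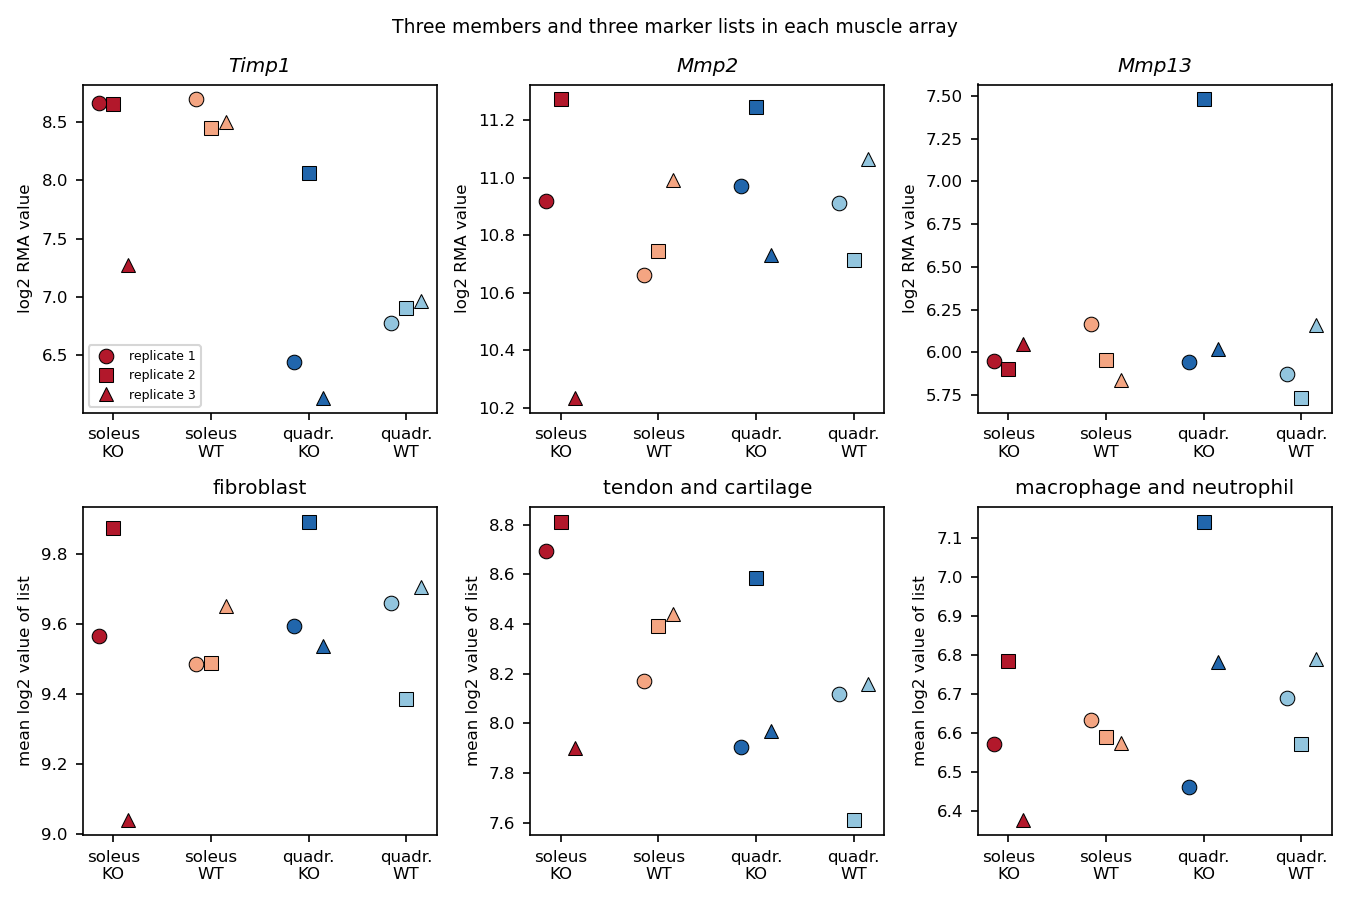
Log2 RMA values of Timp1, Mmp2 and Mmp13 (top) and the mean log2 value of 3 marker lists (bottom) in each muscle array, with a symbol for each replicate number. Soleus KO replicate 3 is the lowest of its group for Timp1, Mmp2 and all 3 lists, and quadriceps KO replicate 2 is the highest of its group in all 6 panels.

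The muscles themselves differed in the family more than the genotypes did. Between WT soleus, a slow postural muscle, and WT quadriceps, limma called 7 of 22 tested members, 4 higher in soleus and 3 lower, where 49.7% of all genes were called, 23.0% higher and 26.7% lower. An unadjusted p under 0.05 was found for 8 of the 22 and for 55.2% of all genes. The share of members called, 31.8%, was below that background. Groups did not overlap for 11 of 22 members, against 56.5% of all genes.

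Adamts8 differed most. It had 9.14, 8.63 and 8.67 in WT soleus, against 6.58, 6.63 and 6.50 in WT quadriceps, where it was near the filter level. The difference was 2.24 (SE 0.13, limma adjusted p 2.89e-08), or 4.74-fold. Timp1 had 8.69, 8.45 and 8.50 in WT soleus, against 6.78, 6.91 and 6.97 in WT quadriceps, a difference of 1.66 (SE 0.38, limma adjusted p 0.00261). Adamts1 had 10.06, 10.30 and 9.63 in WT soleus, against 9.57, 9.36 and 9.51 in WT quadriceps, with the groups close but apart (0.52, SE 0.13, limma adjusted p 0.00648). Timp4 had 9.94, 9.94 and 10.16 in WT soleus, against 9.71, 9.82 and 9.80 in WT quadriceps. Its difference of 0.24 (SE 0.09, limma adjusted p 0.0453) lost its call without any 1 of the 6 WT arrays (adjusted p 0.0567 to 0.197), with median centring (0.0644), with no animal block (0.0869) and with no filter (0.0828).

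The 3 members lower in WT soleus were a gelatinase, an ADAMTS protease and an inhibitor. Mmp9, the leukocyte gelatinase, had 6.58, 6.34 and 6.49 in WT soleus, against 7.32, 7.11 and 7.49 in WT quadriceps (-0.84, SE 0.16, limma adjusted p 0.000804), but its soleus mean of 6.47 lay below the filter level and 1 of the 3 soleus arrays lay above it, so the size of that difference is uncertain. Adamts12, which cuts cartilage oligomeric matrix protein (COMP), had 7.53, 7.58 and 7.59 in WT soleus, against 8.02, 8.06 and 8.30 in WT quadriceps (-0.56, SE 0.15, limma adjusted p 0.00661). The spread within each muscle was small beside that gap. Timp2, which helps Mmp14 to activate Mmp2, had 9.82, 10.08 and 10.13 in WT soleus, against 10.68, 10.27 and 10.66 in WT quadriceps (-0.53, SE 0.17, limma adjusted p 0.0182), and the call was lost without quadriceps WT replicate 1 or 3 or soleus WT replicate 1. Mmp2 and Mmp14 did not pass, at -0.10 (95% interval -0.50 to 0.31) and -0.05 (-0.28 to 0.18), nor did Timp3 at -0.09 (-0.28 to 0.09).

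Adamts6, a protease linked to fibrillin fibres, was not tested in muscle because its mean lay below the level, and is described by its values. It had 7.16, 7.22 and 7.11 in WT soleus, against 5.93, 5.41 and 5.62 in WT quadriceps, where no array reached the level. Its mean in WT soleus lay 0.63 above the filter level, so it was at least that far above WT quadriceps. The KO muscles were apart in the same order, where Adamts6 had 6.86, 7.12 and 6.75 in KO soleus and 5.59, 5.88 and 5.41 in KO quadriceps. Adamts6 was picked for this account after its values were seen.

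**Figure D4:**
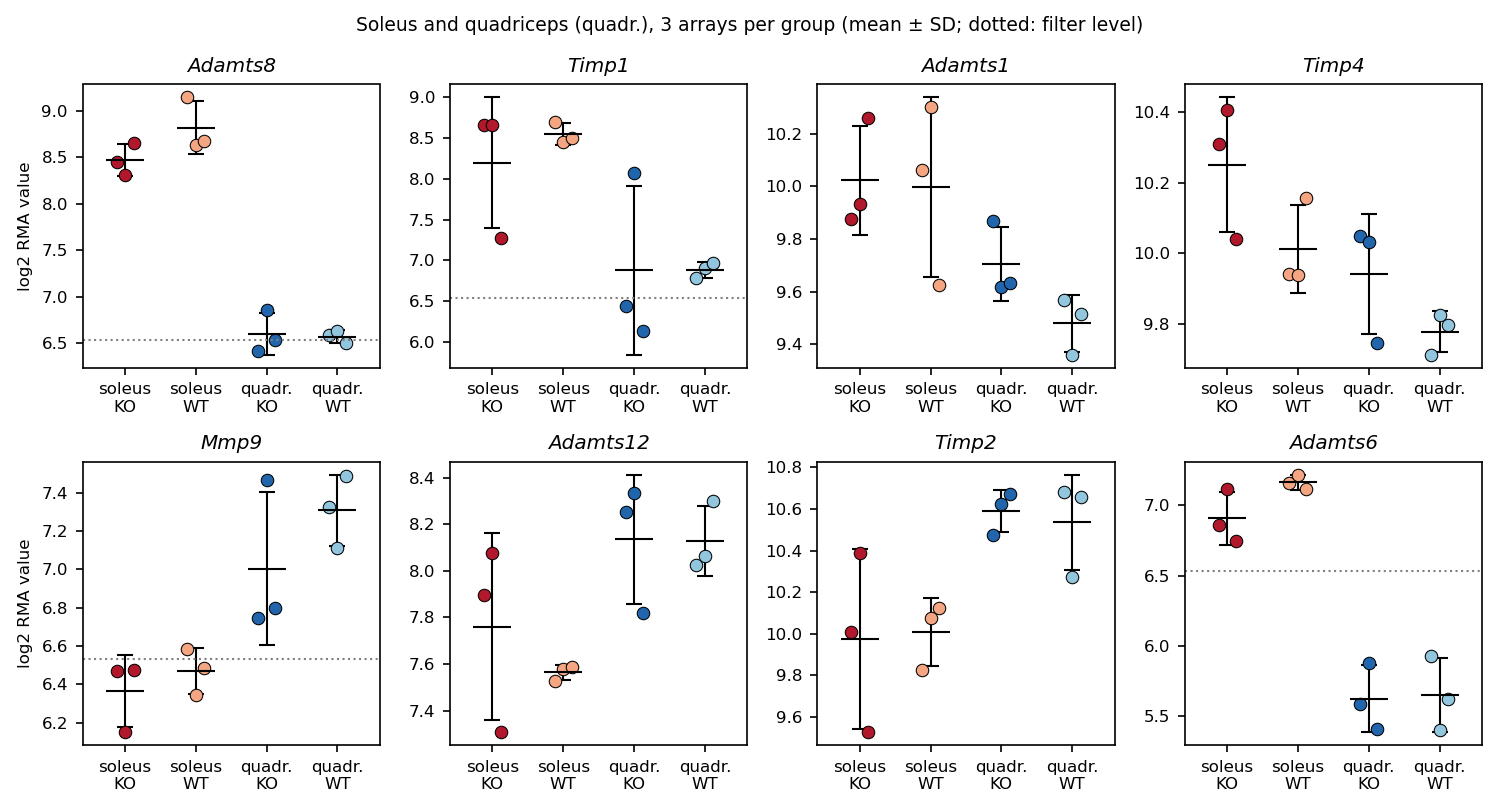
Log2 RMA values of 8 members in KO and WT soleus and KO and WT quadriceps, with black lines at the mean ± SD of 3 arrays and the dotted line at the muscle filter level of 6.54. Adamts8, Timp1, Adamts1, Timp4 and Adamts6 are higher in WT soleus than in WT quadriceps, and Mmp9, Adamts12 and Timp2 are lower.

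Cell-type markers also differed between the muscles. All 10 slow fibre genes, 7 of 7 tested smooth muscle and pericyte genes and 7 of 8 endothelial genes were higher in WT soleus, as were 2 of 6 tendon and cartilage genes. The endothelial list averaged 9.12 to 9.41 in WT soleus and 8.53 to 8.69 in WT quadriceps, and the smooth muscle and pericyte list 8.89 to 9.09 in WT soleus and 8.31 to 8.42 in WT quadriceps. The part of these cells in the member differences was not tested. When the mean of the slow fibre genes entered the fit as a covariate, 0 of 22 members and 50 genes in all were called and the Timp1 difference was -1.50 (SE 1.51). That mean ran from 13.31 to 13.39 in WT soleus and from 7.63 to 8.79 in WT quadriceps, so it separates the muscles by itself.

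The lists around the family were read against the 49.7% of all genes called in the same comparison, and a share near or below it is not a result about a list. Of the proteoglycan and glycoprotein substrates, 5 of 16 tested genes were higher in WT soleus and 0 lower, with Postn (periostin) up by 2.62, Bgn (biglycan) by 0.79 and Eln (elastin) by 0.65. Of 16 collagen substrates, Col8a1 alone was called, at 1.25. The inducers had 5 of 13 higher and 2 lower, among them Ccn2 (1.24), Ccn1 (1.13), Ets1 (0.50) and Jun (0.43). Among 6 ADAMTS-like genes Adamtsl4 (1.37) and Adamtsl5 (0.71) were higher and Adamtsl1 (-1.09) lower. The regulators had 2 of 14 higher, Thbs1 (0.93) and Thbs2 (0.63), and 4 lower, with Reck at -0.57 and Furin at -0.53. The plasminogen list had 3 of 5 higher and 1 lower, Plau (-0.53), which encodes urokinase. The membrane ADAM list had 3 of 8 higher and 1 lower, and the HIF targets 7 of 17 higher and 5 lower.

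Across tissues, vehicle heart was set against each WT muscle. The heart and muscle arrays came from separate experiments, so tissue and experiment cannot be told apart, and both comparisons share the vehicle heart arrays. Whether RMA was run on all 18 arrays together or on each experiment alone is not stated, and the differences between heart and muscle depend on it. Limma called 17 of 23 tested members against WT soleus, 12 higher in heart and 5 lower, where 60.1% of all genes were called, 30.3% higher and 29.8% lower. Against WT quadriceps it called 18 of 23, 11 higher and 7 lower, where 66.9% of all genes were called, 32.7% higher and 34.2% lower. An unadjusted p under 0.05 was found for 17 and 19 of the 23 members, against 63.9% and 69.7% of all genes. Groups did not overlap for 19 and 20 of 23 members, against 65.7% and 70.9% of all genes. The calls include Adamts8 and Adamts20 in both comparisons and Timp1 against WT soleus, each below the level on every vehicle heart array. Adamts4, called in both, was below it on every WT muscle array. These genes passed the filter only through groups where they are high, so nothing about the family is read from the counts.

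Several ADAMTS genes and Timp4 were higher in heart. Adamts7, which cuts COMP, had 7.92, 8.27 and 7.91 in vehicle heart, against 6.96, 6.72 and 6.87 in WT soleus and 6.99, 6.89 and 6.96 in WT quadriceps, with differences of 1.19 (SE 0.09) and 1.08 (SE 0.09). No heart array came near a muscle array. Adamts9 was higher in vehicle heart by 0.98 over WT soleus and 0.94 over WT quadriceps (SE 0.12 each), with all 6 probe sets higher in both comparisons. Timp4 was higher in vehicle heart by 0.80 and 1.03 (SE 0.11 each). Adamts3 was higher by 0.66 and 0.54 (SE 0.12 each), and all 16 of its probe sets were higher in heart in both comparisons. Adamts5 passed against WT soleus (0.53, limma adjusted p 0.0026) but not against WT quadriceps (0.26, 0.0965). Adamts10, Adamts17, Mmp11, Mmp23, Mmp28 and Timp3 were higher in heart in both comparisons by 0.20 to 0.51. All 5 probe sets of Adamts17 were higher in heart in both comparisons. Its second brightest probe set differed by only 0.099 against WT soleus and 0.0033 against WT quadriceps, with overlapping groups in both. Adamts4 was below the level on every WT muscle array, and its vehicle heart mean lay 0.23 above the level. That distance is a lower bound on its difference from either WT muscle. That bound rests on vehicle replicates 1 and 2 at 7.08 and 6.78, since replicate 3 at 6.55 was below the level, and without replicate 1 both calls were lost (limma adjusted p 0.123 against WT soleus and 0.205 against WT quadriceps). With median centring Adamts17 and Mmp11 lost the call against WT soleus (0.13 and 0.18) and Adamts4, Mmp23 and Timp3 that against WT quadriceps (0.22, 0.23 and 0.14). Repeated quantile normalization ended the calls of Adamts4 in both comparisons, of Mmp11 against WT soleus and of Mmp23 against WT quadriceps. Leaving out vehicle replicate 2 or soleus WT replicate 2 ended the Adamts10 call against WT soleus (limma adjusted p 0.102 and 0.0871), and leaving out 1 array also ended calls of Adamts17, Adamts4, Mmp11 and Timp3. The Mmp28 calls held under all 15 alternatives in each comparison.

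Others were lower in heart. Adamts8 had 5.69, 6.07 and 6.09 in vehicle heart, below the level on every array. Its WT soleus mean lay 2.24 above the level, so vehicle heart was lower by at least that much. Timp1 had 6.44, 6.57 and 6.51 in vehicle heart, also below the level on every array, and was lower than WT soleus by at least 1.97. Adamts20 had 6.00, 6.07 and 5.98 in vehicle heart, at least 0.88 below the WT soleus mean and 1.13 below the WT quadriceps mean. These bounds replace fold changes because values under the level have no sure order. Adamts1 was lower in vehicle heart by 1.41 against WT soleus and 0.89 against WT quadriceps (SE 0.13 each). Mmp2 had 10.15, 10.03 and 10.15 in vehicle heart, and its differences were -0.69 and -0.79 (SE 0.18 each). Against WT quadriceps alone, Timp2 (-0.74), Adamts12 (-0.88) and Mmp9 (-0.67) were also called lower, while against WT soleus they were -0.21, -0.31 and 0.17 and did not pass.

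**Figure D5:**
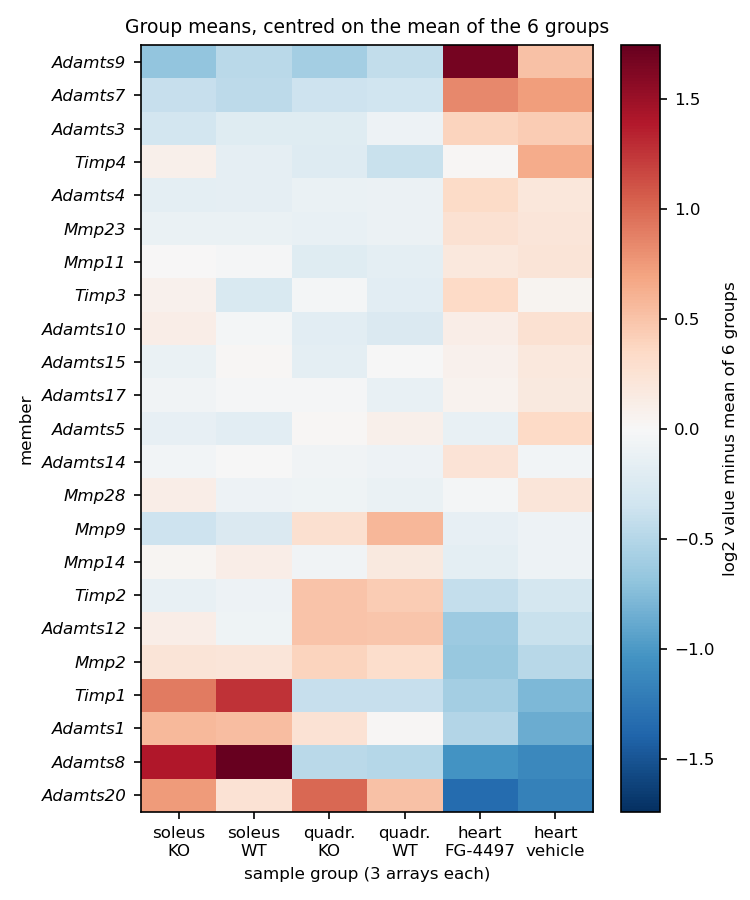
Mean log2 value of each of the 23 members tested over all arrays, minus the mean of its 6 group means, with groups in columns and members ordered by heart against muscle. Adamts9 and Adamts7 are highest in heart, Adamts8 and Timp1 in soleus, and Adamts20 is lower in heart than in any muscle group.

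Cell-type markers differed between heart and muscle as well. All 8 endothelial genes were higher in vehicle heart than in either WT muscle. Tendon and cartilage genes were lower, with 5 of 5 tested genes called against WT soleus and 4 of 5 against WT quadriceps. The collagens went both ways. Of 16 collagen substrates, 2 were called higher and 5 lower against WT soleus, and 4 higher and 8 lower against WT quadriceps. Among the lower ones were Col1a1 (-1.63 and -1.61) and Col1a2 (-1.54 and -1.53). The part of these cell types in the member differences was not tested. Over the 6 groups the order of means for Adamts9 was FG-4497 heart, vehicle heart, WT quadriceps, WT soleus, KO quadriceps and KO soleus, at 10.81, 9.65, 8.70, 8.67, 8.54 and 8.45, and the 4 muscle groups overlapped their neighbours. For Timp4 the order was vehicle heart, KO soleus, FG-4497 heart, WT soleus, KO quadriceps and WT quadriceps, at 10.81, 10.25, 10.18, 10.01, 9.94 and 9.78. All of these neighbours overlapped except vehicle heart and KO soleus, so the mean of the FG-4497 hearts lay among those of the muscles for Timp4.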

How the data were processed

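RNA from 18 mouse muscle and heart samples was hybridised to Affymetrix arrays. The deposited values were log2 RMA values, per the submitters' processing notes, which give no RMA version. Depth has no meaning for arrays, and the 3 arrays per group limit the precision. Of 35556 probe sets, 21789 carried 1 gene symbol, 1621 several and 12146 were not listed, by GEO's platform annotation, and the brightest probe set of each gene was used. Members were the genes that the name rule found.

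Limma 3.58.1 in R 4.3.3 fitted group means with lmFit and eBayes to the 12 muscle arrays, the 6 heart arrays and all 18 arrays. Where soleus and quadriceps arrays carried the same animal number in the descriptions, the animal was a random block, with a consensus correlation of 0.178 in the muscle fit. Genes were kept from the 40th percentile of gene means upward, and p-values were adjusted (Benjamini-Hochberg) over all 11963 genes tested per fit, with a threshold of 0.05 and 95% intervals. Replicates are labelled biological. Same-animal arrays deviated together with correlations of 0.0022 to 0.386 over 6 pairs, 4 of them above 0.1. The script was tested on simulated data. Values of every array are given for members called in a KO or FG-4497 comparison, or for the 3 with the smallest p where fewer than 3 were called, and for called members between WT muscles; from each list of other genes up to 4 called genes were named, or the 1 with the largest change. Members, lists and tests were chosen with earlier results of these data known. Promoters came from RefSeq (GRCm38.p6). Alternatives covered the filter, probe set choice, normalization, prior, weights, blocks, the arrays fitted, a slow fibre covariate and leaving out each array.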

Additional observations from a re-analysis of the deposited data

How the results depend on the processing

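Over 57 differences of single members, 897 of 958 alternative values kept their direction and their side of the threshold, 55 lost a call, 4 gained one and 2 reversed. The reversals were Adamts17 for the KO difference between muscles (0.012 with the mean of its probe sets) and Timp1 between WT muscles (-1.50 with the slow fibre covariate, which leaves 0 of 22 members called there and 50 genes in all, against 5951). Adamts9 after FG-4497 was called under all 15 alternatives. Counts of members called in the heart were 5 with the trended and robust prior, which adds Adamts1 and Timp3, and 1 to 3 when an array was left out, with 1 without vehicle replicate 3 or FG-4497 replicate 1 or 2. With no filter the heart count was 2, Adamts9 and Mmp8, and Mmp8 lay below the level on every heart array. Averaged over both muscles the KO count was 1 with estimated array weights and 0 to 1 with an array left out. In quadriceps it was 2 with both KO arrays that stand apart, picked by their values, left out and 0 to 1 with an array left out. In soleus, and for the difference of the muscles, it was 0 to 0. The WT muscle count was 4 with the filter at the 60th percentile and 5 to 7 with an array left out. The counts for vehicle heart were 9 and 9 with that filter, which tests fewer genes, and 13 to 17 against WT soleus and 16 to 19 against WT quadriceps with an array left out. Except where fewer genes or samples were tested, the cause was not tested. With the replicate block, from title numbers, 3 members were called in heart and 0 in soleus and in quadriceps KO, so it changed no call. Same-numbered arrays of the groups compared had correlations of -0.306 to 0.166, and the numbers do not pair those groups. Counts over all genes moved more. After FG-4497 267 genes were called, and 147 with no filter, 160 without vehicle replicate 3, 170 without vehicle replicate 2, 174 without FG-4497 replicate 1 and 374 with the trended and robust prior. In KO soleus 22 were called, and 6 to 67 under the alternatives. In KO quadriceps 95 were called, and 26 to 226. Averaged over both muscles 109 were called, and 61 to 258. For the difference of the muscles 1 was called, and 0 to 3. Signal near or below the filter level limits what can be said of the collagenases and many other members.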

Other observations

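Relatives of the family were also measured in the vehicle hearts, where 60.1% of all genes were called against WT soleus and 66.9% against WT quadriceps. The membrane ADAM counts are near these shares, and nothing particular to any list is read from its counts. Of 8 tested membrane ADAM proteases, 4 were higher and 1 lower than in WT soleus, and 5 were higher and 1 lower than in WT quadriceps. Adam19 was higher by 1.59 and 1.55, Adam22 by 1.01 and 1.47, while Adam9 was lower in both, at -0.42 and -0.73. In the plasminogen list of 6 tested genes, 4 were higher against WT soleus and 5 against WT quadriceps, with F3 (tissue factor) up by 0.72 and 1.04 and Thbd (thrombomodulin) by 0.66 and 1.11. Plau, which encodes urokinase, was the single gene lower, at -1.47 against WT soleus and -1.995 against WT quadriceps. Among substrates, Fmod (fibromodulin, a tendon proteoglycan) was at -3.85 and -4.31 and Lamb1 (a laminin chain) at 1.37 and 1.32. All these are limma log2 differences, vehicle heart minus WT muscle, with adjusted p under the threshold, and the 2 experiments cannot be told apart from the tissues.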
